A study of Mus musculus with 9 samples.

Results

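The aquaporins are membrane channels for water and, in some members, for glycerol and other small solutes. The 9 members described here were taken by name from the 32195 genes of a table of UMI counts, by a rule that holds names and no measured value, and they were Aqp1, Aqp2, Aqp3, Aqp4, Aqp5, Aqp7, Aqp8, Aqp9 and Aqp11. A UMI is a tag on each captured transcript, so that copies made by PCR are counted once. Cells of the mouse epididymis, the duct in which sperm mature and are stored, were measured by single-cell RNA-seq in 9 libraries, which were the caput (the segment next to the testis), the corpus and the cauda (the storage segment) of 3 pools of mice. All mice were untreated C57BL/6 animals, with no transgene or deletion named. One pool was 42 days old (P42) and 2 pools, called replicate 1 and replicate 2, were 56 days old (P56). Each pool held the epididymides of 5 mice, so the spread between mice was averaged within a library, and sperm were not removed from the tissue.

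Aquaporins assemble as tetramers in which every subunit holds its own pore. The orthodox members pass water, the aquaglyceroporins also pass glycerol and urea, and the unorthodox members, which lie mainly on inner membranes, differ in the motifs of the pore. In the epididymis, fluid that leaves the testis is reabsorbed along the duct, and Aqp9, an aquaglyceroporin, is known as the water and solute channel of the apical membrane of principal cells, the main cells of the duct.

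Of 44869 barcodes, 42087 cells passed the filters on cells. The libraries held 23114756 to 50655384 UMIs, and the median per kept cell lay between 3088.5 in the cauda at P42 and 7644 in the cauda of P56 replicate 2. The cells were clustered without the aquaporins, and a cluster received a name ending in "-like" from lists of markers that hold no aquaporin. There were 21492 principal-like, 5110 clear/narrow-like, 4682 myoid/fibroblast-like, 3456 basal-like, 2934 macrophage/monocyte-like, 855 sperm-like, 847 endothelial-like, 488 halo/T-like and 214 ciliated-like cells, and all 214 of the last were in the caput. Assigning each cell by its own marker UMIs, a gate used as an alternative, gave the same population for 66.2% of cells. It placed 2552 of the myoid/fibroblast-like cells with the principal cells and 1067 with their own population, and kept 1326 of the basal-like cells as basal. Libraries with fewer than 10 cells of a population were left out for it. A further 722 globin-rich and 1287 unnamed cells entered no comparison. In the cauda at P42, 1435 of 1650 principal-like cells came from 1 cluster with a median of 1454 UMIs, and 116 barcodes occurred in more than 1 library. The largest principal-like cluster, with 2880 of the 7586 principal-like cells of the corpus, was led by the immunoglobulin genes Iglc1, Jchain, Igkc and Ighm. It had a median of 3093.5 UMIs, and 11 of the 28 principal markers were raised in it. Markers of principal cells were also counted in other populations, and the parts of free RNA, doublets and misplaced cells in this were not tested. The 28 principal markers summed to a median of 43560 CPM, the UMIs of a gene scaled to 1e6 UMIs in all, in principal-like cells and still to 23290 CPM in endothelial-like cells, which should lack them. Levels below are CPM of the UMIs summed over the cells of a population in a library, globins left out. They are compared between populations and segments but not between genes.

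The kept cells held 7685 UMIs of Aqp11, 6824 of Aqp9, 1914 of Aqp1, 228 of Aqp4, 191 of Aqp2, 139 of Aqp7, 87 of Aqp5, 81 of Aqp8 and 58 of Aqp3. For 6 of the 9 genes, therefore, fewer than 250 molecules were counted in 42087 cells, and the depth limits what can be said of them.

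**Figure D1:**
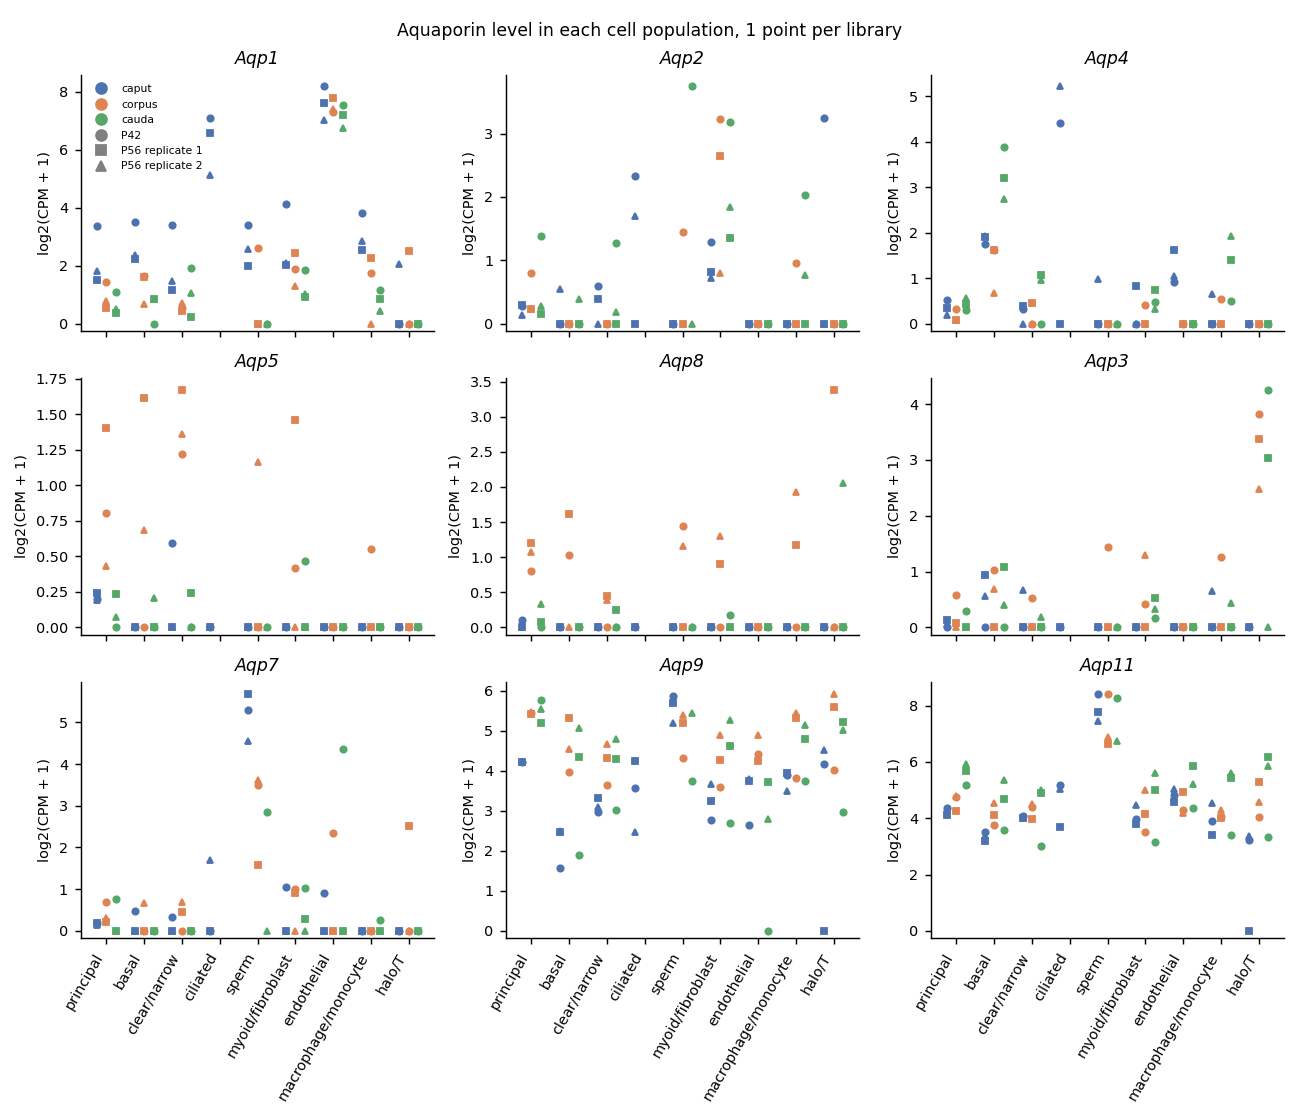
Level of each aquaporin, log2(CPM + 1) on the vertical axis, in 9 cell populations on the horizontal axis, with 1 point per library with at least 10 cells (colour, segment; shape, pool). Aqp1 stood highest in endothelial-like cells, between 107.3 and 291 CPM, Aqp11 in sperm-like cells, and Aqp7 in the sperm-like cells of the caput.

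The results on segments turn mainly on Aqp1, Aqp9 and Aqp11, so the bases just before their transcription starts in RefSeq (GRCm38.p6) are shown, 5′ to 3′ on the strand of the gene. They were cut so that they hold no annotated exon. Capitals mark GGAAG or its reverse complement CTTCC, and TGAGTCA or its reverse complement TGACTCA, the AP-1 site, searched on both strands. GGAAG is the shorter core GGAA of ETS factors with 1 more base, and GGAA alone is not marked. Aqp1 lies at chr6:55336432-55348555 on the plus strand, Aqp9 at chr9:71110659-71168682 and Aqp11 at chr7:97724006-97738289, both on the minus strand, and the RefSeq table used here gives a pair of starts for Aqp9, an upstream and a downstream one. The annotated Aqp9 gene reaches further upstream than both, and no sequence is shown for that end.
Aqp1, chr6:55336049-55336298 (+): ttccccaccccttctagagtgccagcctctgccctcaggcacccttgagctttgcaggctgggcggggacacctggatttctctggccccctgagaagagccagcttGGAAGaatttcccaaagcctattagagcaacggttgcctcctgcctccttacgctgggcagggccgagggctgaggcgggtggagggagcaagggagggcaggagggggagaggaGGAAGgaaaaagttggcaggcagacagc
Aqp9, upstream RefSeq start, chr9:71163290-71163411 (-): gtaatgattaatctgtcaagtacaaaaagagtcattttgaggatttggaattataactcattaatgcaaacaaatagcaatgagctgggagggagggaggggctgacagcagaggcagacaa
Aqp9, downstream RefSeq start, chr9:71162634-71162883 (-): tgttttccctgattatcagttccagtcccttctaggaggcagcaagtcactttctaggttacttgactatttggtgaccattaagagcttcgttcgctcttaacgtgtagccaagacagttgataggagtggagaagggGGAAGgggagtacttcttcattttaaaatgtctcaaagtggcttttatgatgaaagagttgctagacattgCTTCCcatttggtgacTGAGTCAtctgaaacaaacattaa
Aqp11, chr7:97738290-97738497 (-): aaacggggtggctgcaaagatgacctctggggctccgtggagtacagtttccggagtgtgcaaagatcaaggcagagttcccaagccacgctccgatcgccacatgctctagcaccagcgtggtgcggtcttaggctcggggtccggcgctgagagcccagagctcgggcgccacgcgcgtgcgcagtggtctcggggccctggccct
The Aqp1 sequence held GGAAG 143 and 28 bases before the start. The downstream start of Aqp9 had GGAAG 111, CTTCC 40 and TGAGTCA 24 bases before it. Neither GGAAG nor TGAGTCA was found on either strand of the Aqp11 sequence, where the shorter GGAA was not counted. GGAAG or its complement was present in 64.1% of 32851 promoters of 250 bases and TGAGTCA or its complement in 4.46%, so the first is common in any such set. The 10 RefSeq promoters of 8 members, searched at their full 250 bases, held GGAAG in 7 and TGAGTCA in 1. These matches describe the letters and not a bound site.

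Aqp1, the water channel of red blood cells and of capillary endothelium, was found mainly in endothelial-like cells, with 1173 of its 1914 UMIs. In endothelial-like cells it reached 291, 195 and 130.1 CPM in the caput of P42, P56 replicate 1 and P56 replicate 2, 158, 222 and 167 CPM in the corpus, and 185, 147 and 107.3 CPM in the cauda, in the same order of pools. Every one of these 9 values lay above every value of the other populations except the ciliated-like cells. The fitted log2 difference from principal-like cells was 6.45 ± 0.26 (SE), and the quasi-likelihood test of edgeR, adjusted by Benjamini-Hochberg over all genes, gave an adjusted p of 1.54e-33. In this comparison 12% of 14817 genes were called higher. The median of all genes was shifted by -0.19 in this comparison. The 3 libraries of a pool enter the comparisons of populations as if independent. Their SE and p, here and below, thus do not carry the spread between pools. A gene is named as called where the adjusted p was below 0.05 and the fitted log2 change reached 1 in size.

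Aqp1 UMIs were found in 37.7% ± 12.5 (SD, n = 9 libraries) of endothelial-like cells with a median depth of 5860 UMIs, and in 1.3% ± 2.06 of principal-like cells with a median of 5756. After cells were thinned to 2000 UMIs, with 30 of 847 endothelial-like and 2229 of 21492 principal-like cells left out because they had fewer, the shares were 21.8% and 0.488%. Within the endothelial-like cells, a cluster led by Ptprb, Flt1 and Emcn, genes of blood vessels, had 202 ± 65.8 CPM (n = 9 libraries). A smaller cluster led by Mmrn1, Lyve1 and Cldn5, of which Lyve1 marks lymphatic vessels, had 72.7 ± 24 CPM (n = 3 libraries). Of the endothelial-like cells with an Aqp1 UMI, 80.9% also held a UMI of Kdr, the main VEGF receptor, and of those without, 62.5%. Such shares of cells with both genes, here and below, were not matched for depth per cell, which can itself raise them. Between segments, Aqp1 in endothelial-like cells was not called. The cauda differed from the caput by -0.31 ± 0.294 and the corpus by -0.08 ± 0.277 on the log2 scale, with an adjusted p of 0.823 over the segments, where 8.88% of 6050 genes were called.

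Aqp1 was also counted in principal-like cells, at far lower levels. It had 9.43, 1.81 and 2.53 CPM in the caput of the 3 pools, 1.73, 0.453 and 0.702 CPM in the corpus and 1.15, 0.29 and 0.421 CPM in the cauda. In every pool the caput was highest and the cauda lowest. The difference between cauda and caput was -2.53 ± 0.334 and that between corpus and caput -2.01 ± 0.308, with an adjusted p of 0.000691 over the 3 segments, where 33.6% of 15782 genes were called and 14.5% were called with the caput highest. The share of endothelial-like cells also differed between the libraries. In caput, corpus and cauda it was 7.44%, 2.19% and 0.501% at P42. It was 1.64%, 1.5% and 1.44% in P56 replicate 1, and 2.83%, 0.69% and 0.41% in P56 replicate 2. The 11 endothelial markers, of which 10 or 11 were detected, were summed in principal-like cells. In the same order of segments, they gave 90.5, 53.7 and 44.7 CPM at P42. They gave 27.8, 38.9 and 14.4 CPM in P56 replicate 1, and 42.4, 31.2 and 10.8 CPM in P56 replicate 2. The level of Aqp1 in principal-like cells divided by that in endothelial-like cells lay between 0.00197 and 0.0325, and it exceeded the median of the same ratio over the endothelial markers in 3 of 9 libraries. The part of free or endothelial RNA in the segment difference was not tested.

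The ciliated-like cells of the caput, known by Foxj1, Ccdc153 and other genes of motile cilia, held Aqp1 at 136, 95 and 33.8 CPM in the 3 pools. This was 4.19 ± 0.36 higher on the log2 scale than in principal-like cells (adjusted p = 5.99e-16), where 8.36% of genes were called higher. No member was called lower in ciliated-like cells, where 3.43% of genes were, or in sperm-like cells, where 2.86% were. The ratio to endothelial-like cells was 0.26 to 0.486, and that of the endothelial markers 0.0112 to 0.0444, so that Aqp1 exceeded the markers in 3 of 3 libraries. Kdr, however, was also present, in 45 of 214 cells, and in 37.9% of the cells with an Aqp1 UMI against 13.5% of the others. Pecam1, a further endothelial marker, was found in 9 cells. Whether doublets with endothelial cells contribute was not tested.

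**Figure D2:**
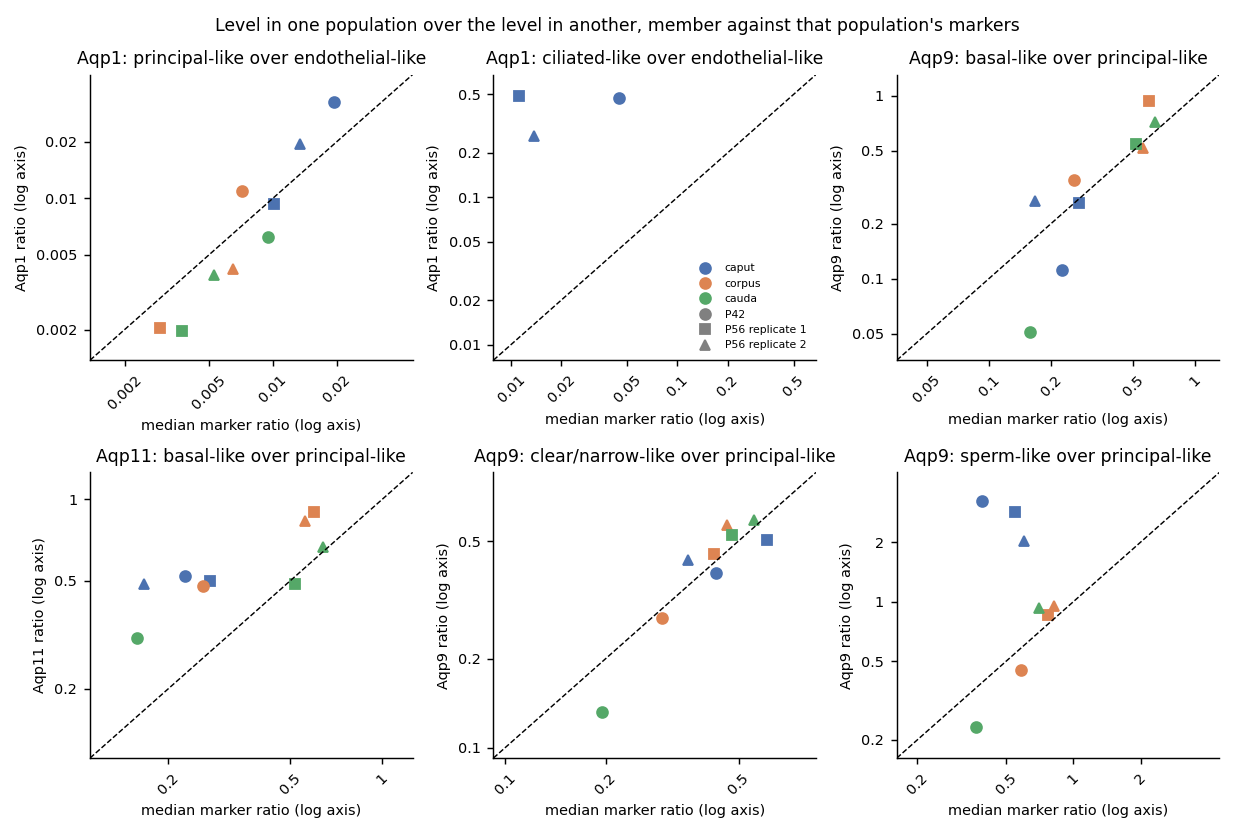
The level of a member in one population divided by its level in the population where it was abundant (vertical log axis) against the median of the same ratio over that population's markers (horizontal log axis), 1 point per library (colour, segment; shape, pool), with the line of equal ratios dashed. Aqp1 in ciliated-like cells and Aqp9 in the sperm-like cells of the caput stood above the line in 3 of 3 libraries, Aqp11 in basal-like cells in 8 of 9, and Aqp9 in basal-like cells in 5 of 9.

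Aqp2 is the vasopressin-regulated channel of the renal collecting duct. Of its UMIs, 118 lay in myoid/fibroblast-like cells, where it had 1.46, 0.766 and 0.654 CPM in the caput, 8.41, 5.24 and 0.733 CPM in the corpus and 8.09, 1.57 and 2.57 CPM in the cauda. The corpus and cauda libraries spread widely, and 1 corpus library lay among those of the caput. Against principal-like cells, Aqp2 was higher by 2.8 ± 0.37 on the log2 scale (adjusted p = 3.41e-09), where 11.4% of genes were called higher. In this comparison Aqp2 passed the filter on low counts only with the P42 corpus and cauda libraries of myoid/fibroblast-like cells. A call was thus likely once it was tested. Between segments it was not called in these cells, with a range of 2.36 and an adjusted p of 0.103, where 11.3% of genes were called. The highest pooled level, 10.2 CPM, was in a cluster led by Pi16, Col1a1 and Pcolce2, which are fibroblast genes, with 47 UMIs in 787 cells. Of these cells, 766 were in the cauda. Only the P42 pool had libraries with at least 10 of them, with 8.84 CPM in the corpus and 10.2 CPM in the cauda. This cluster thus cannot be told apart from the P42 pool. A myoid/fibroblast-like cluster led by Col6a5, Osr1 and C3 held Aqp2 at both ages. It had 12.4, 11.2 and 4.9 CPM in the corpus of P42, P56 replicate 1 and P56 replicate 2, and 4.58, 8.73 and 0 CPM in the cauda. No Aqp2 UMI was found in 847 endothelial-like cells, which allows up to 0.354% of cells with a UMI (3 cells) and sets no limit on cells that express the gene. In ciliated-like cells the difference from principal-like cells was 3.29 ± 0.923 (adjusted p = 0.0064), which rests on 4 UMIs in 4 of 214 cells. Aqp2 was tested there only because the myoid/fibroblast-like cells carried it past the filter.

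Aqp4, the channel of astrocyte end feet, was found mainly in basal-like cells, the flat cells at the base of the epithelium, with 114 of its 228 UMIs. Its level there was 2.37, 2.75 and 2.81 CPM in the caput, 2.09, 2.06 and 0.604 CPM in the corpus and 13.7, 8.2 and 5.63 CPM in the cauda. The 3 cauda values were each above all 6 others. Against principal-like cells the difference was 3.28 ± 0.366 on the log2 scale (adjusted p = 2.17e-11), where 9.02% of genes were called higher. In the comparison of populations Aqp4 passed the filter on low counts through basal-like and ciliated-like cells alone, so that a call was likely once tested. Aqp4 had too few UMIs for the segment test in basal-like cells. An exact permutation test within pools gave p = 0.0278, the smallest that this design allows, and 0.111 after adjustment over the 36 tests of this kind. With no filter on low counts, edgeR called Aqp4 between segments in basal-like cells, with a range of 2.52 and an adjusted p of 3.72e-05. UMIs of Aqp4 were found in 2.5% ± 2.01 of basal-like cells (n = 9) and in 0.165% ± 0.132 of principal-like cells.

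In the ciliated-like cells of the caput, Aqp4 had 20.3, 0 and 36.1 CPM in P42, P56 replicate 1 and P56 replicate 2, with 31 UMIs in 24 of 214 cells. The difference from principal-like cells was 5.92 ± 0.505 (adjusted p = 2.36e-15), although 1 of the 3 libraries held none. Aqp1 and Aqp4 occurred together in 7 cells. Aqp4 was found in 10.6% of the cells with an Aqp1 UMI and in 11.5% of those without. An antisense gene, AC133525.2, which had no row in the table used here, overlaps an exon of Aqp4, and the strand setting of the count is not given in the sources used here, so the reads of the pair may not have been told apart.

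**Figure D3:**
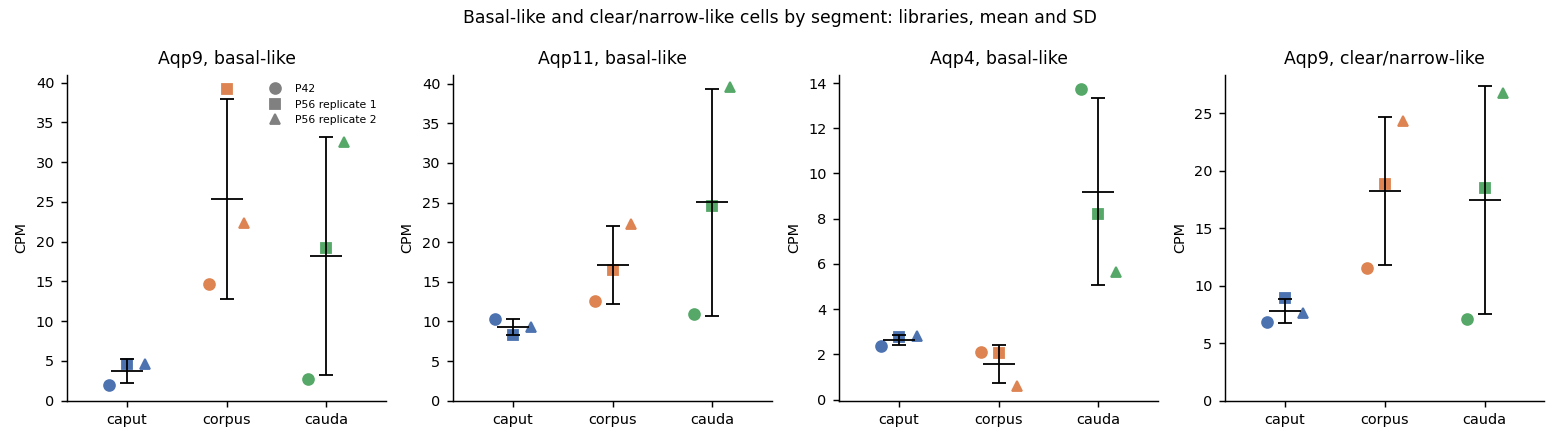
CPM (vertical axis) of Aqp9, Aqp11 and Aqp4 in basal-like cells and of Aqp9 in clear/narrow-like cells by segment, with 1 point per library (shape, pool), and the mean with its SD as a black bar. The 3 caput libraries lay below the corpus libraries for Aqp9 in basal-like cells, and the 3 cauda libraries lay above all others for Aqp4.

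Aqp5, the apical channel of salivary, sweat and lacrimal glands, had 54 of its 87 UMIs in principal-like cells. Its level there was 0.146, 0.181 and 0.143 CPM in the caput, 0.742, 1.64 and 0.351 CPM in the corpus and 0, 0.174 and 0.0527 CPM in the cauda. The 3 corpus values were the highest of all 9. The summed UMIs gave a corpus level 6.02 times that of the caput, with an exact 95% interval of 2.88 to 14.1 that covers counting error only. Aqp5 did not pass the filter on low counts between segments. The exact permutation test within pools gave p = 0.0278, and 0.111 after adjustment. Within the principal-like cells the highest pooled level, 3.66 CPM, was in a cluster of the corpus led by Spint4, Spint5 and Defb23. Aqp5 in clear/narrow-like cells, the acid-secreting cells, was likewise found at 1.33, 2.18 and 1.56 CPM in the corpus, and at 0 to 0.51 CPM in the other libraries.

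Aqp8, which passes water, ammonia and hydrogen peroxide, was also highest in the corpus. In principal-like cells it had 0.0731, 0 and 0 CPM in the caput, 0.742, 1.3 and 1.11 CPM in the corpus and 0, 0.058 and 0.263 CPM in the cauda. The corpus values did not overlap with the others. The corpus held 48 UMIs in 45 of 7586 cells and the caput 1 UMI in 7892 cells, a ratio of 63.5 with an exact 95% interval of 10.9 to 2560 for counting error. The segments differed with an adjusted p of 0.00489, and 9.89% of genes were called with the corpus highest. Aqp8 passed the filter on low counts through the corpus alone, so that a call was likely once it was tested. Without P56 replicate 1 the adjusted p was 0.117. Of the corpus cells with an Aqp8 UMI, 37.8% also held Aqp9 and 19% of the others did.

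**Figure D4:**
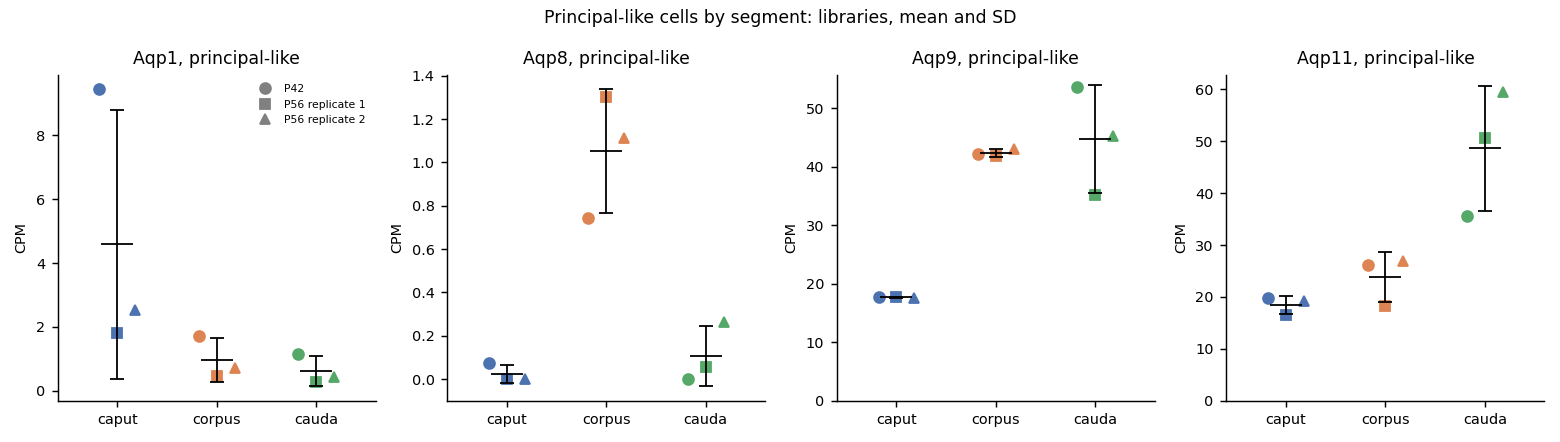
CPM (vertical axis) of Aqp1, Aqp8, Aqp9 and Aqp11 in principal-like cells by segment, with 1 point per library (shape, pool) and the mean with its SD as a black bar. Aqp1 was highest in the caput in every pool, Aqp8 in the corpus, Aqp9 was low in the 3 caput libraries, and Aqp11 was highest in the cauda in every pool.

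Among the aquaglyceroporins, Aqp3, the glycerol channel of skin and of basolateral membranes, was counted least. Of its 58 UMIs, 18 were in halo/T-like cells, the lymphocytes of the epithelium, where 17 of 488 cells had one (3.48%, exact 95% interval 2.04% to 5.52%). Its level in these cells was 0 in the 3 caput libraries, 13.1, 9.41 and 4.59 CPM in the corpus and 18.1, 7.19 and 0 CPM in the cauda. In the caput there were 76 such cells, and 3 UMIs would have been 5.62 CPM there. The 18 UMIs of corpus and cauda gave 10.1 CPM, at least 1.79-fold higher than this floor over the caput libraries, and the difference was not tested by the fit. Against principal-like cells the difference was 5.33 ± 0.644 on the log2 scale (adjusted p = 1.99e-09), where 5.67% of genes were called higher and the median of all genes was shifted by -0.24. In this comparison Aqp3 passed the filter on low counts through the halo/T-like cells alone, so that a call was likely once it was tested. Principal-like cells had an Aqp3 UMI in 8 of 21492 cells. In basal-like cells Aqp3 was 2.23 ± 0.593 higher than in principal-like cells (adjusted p = 0.00171), from 13 UMIs in 11 cells, and without P56 replicate 1 the adjusted p was 0.118. Aqp3 was tested there only because the halo/T-like cells carried it past the filter.

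Aqp7, known as the glycerol channel of fat cells and also of spermatids, was found in sperm-like cells with 84 of its 139 UMIs. It had 38, 50.4 and 22.5 CPM in the caput, 10.4, 1.99 and 11.2 CPM in the corpus, and 6.21 and 0 CPM in the cauda of P42 and P56 replicate 2, while P56 replicate 1 had fewer than 10 sperm-like cells there. The 3 caput values were above all 5 others. The 2 cauda libraries, however, held 1 Aqp7 UMI in all. There 3 UMIs would have been 18.6 CPM at P42 (61 cells) and 31.7 CPM in P56 replicate 2 (12 cells), so both values lie below that floor. The caput of P42 had 16 sperm-like cells, where 3 UMIs would have been 28.5 CPM. No segment test was made in sperm-like cells, since not all 9 libraries had enough of them. Against principal-like cells Aqp7 was 5.84 ± 0.499 higher (adjusted p = 3.44e-16), where 19.7% of genes were called higher. Aqp7 passed the filter on low counts only because of its level in sperm-like cells, so that a call was likely once it was tested. A sperm-like cluster led by Ldhc, Cox8c and Rbakdn, which also showed 5 of 9 ciliated markers, had 38.6 ± 26.7 CPM (n = 5 libraries), and one led by Prm2 and Prm1, the protamines that pack sperm DNA, had 4.4 ± 3.21 CPM (n = 7). The first cluster had 172 of its 221 cells in the caput and the second 181 of 634. Within the caput, Aqp7 had 73.8 CPM in the first cluster and 8.32 in the second in P56 replicate 1, and 42.9 and 4.61 CPM in P56 replicate 2, a difference that was not tested.

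**Figure D5:**
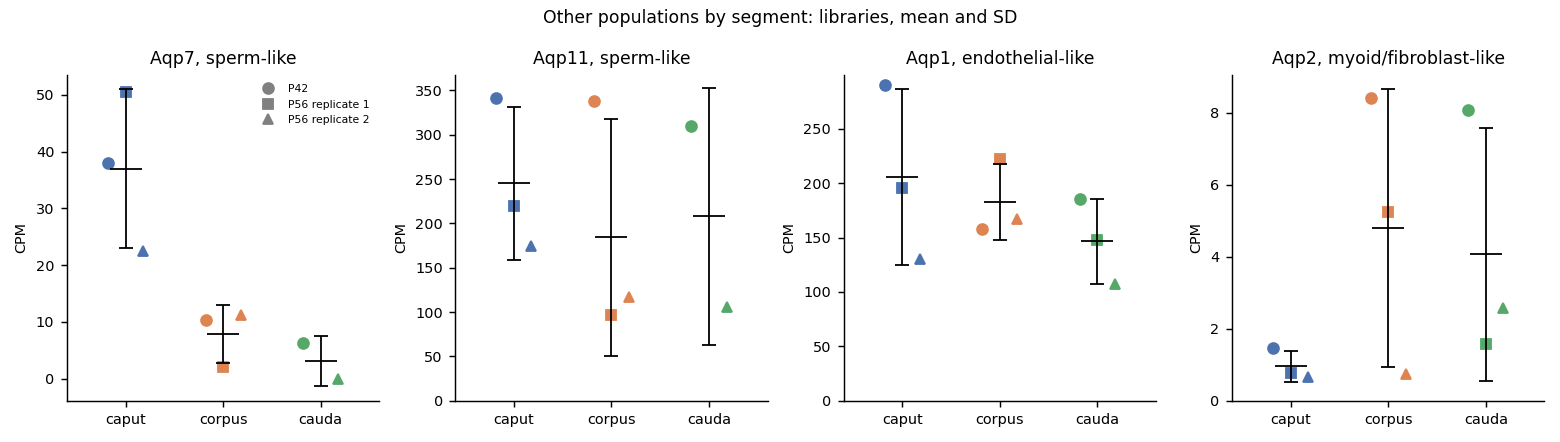
CPM (vertical axis) of Aqp7 and Aqp11 in sperm-like cells, Aqp1 in endothelial-like cells and Aqp2 in myoid/fibroblast-like cells by segment, with 1 point per library with at least 10 cells (shape, pool) and the mean with its SD as a black bar. Aqp7 in the 3 caput libraries lay above the other 5, of which the 2 of the cauda held 1 UMI of it in all. Aqp11 in sperm-like cells was highest at P42 in every segment.

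Aqp9 was found in principal-like cells of every library. It had 17.7, 17.7 and 17.6 CPM in the caput of P42, P56 replicate 1 and P56 replicate 2, 42.2, 41.8 and 43.1 CPM in the corpus and 53.6, 35.2 and 45.3 CPM in the cauda. All 6 corpus and cauda values were above the 3 caput values, and the pools lay close together in the caput and in the corpus. The difference from the caput was 1.36 ± 0.142 on the log2 scale in the corpus (adjusted p = 0.000219) and 1.53 ± 0.142 in the cauda (adjusted p = 0.000123), and the cauda differed from the corpus by 0.17 ± 0.139 (adjusted p = 0.466). Of 15782 genes, 9.27% were called with the cauda highest. Without the cluster of few UMIs from the cauda at P42, the difference between cauda and caput was 1.37 ± 0.202 (adjusted p = 0.00149). The low level of the caput was shared by its clusters of principal-like cells to different degrees. A cluster led by Lypd8, Ppy and Defb45 had 6.54 ± 2.93 CPM (n = 3 libraries) and one led by Defb47, Defb18 and Teddm1b 15.6 ± 7.06 CPM (n = 3), whereas one led by Ntsr2, Rnase13 and Lcn5 had 18.3, 23.5 and 22.5 CPM of Aqp9 in the caput of P42, P56 replicate 1 and P56 replicate 2.

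Outside principal-like cells, Aqp9 was lower in basal-like (-1.65 ± 0.238), clear/narrow-like (-1.7 ± 0.228), myoid/fibroblast-like (-1.46 ± 0.228), endothelial-like (-1.85 ± 0.309) and halo/T-like cells (-1.02 ± 0.32), with adjusted p between 2.66e-09 and 0.0129. Genes called lower made up 8.07%, 7.65%, 4.56%, 10.7% and 4.2% of those tested in these comparisons. The halo/T-like value lost its call in 8 of 12 alternatives. Even so, Aqp9 UMIs were found in 6.47% ± 3.1 of endothelial-like cells, beside 17.2% ± 7.18 of principal-like cells (n = 9 each), and in both at similar median depth, so that low values elsewhere are read here with the ratios of the principal markers. No member was called higher in clear/narrow-like cells, where 7.21% of genes were, and none in either direction in macrophage/monocyte-like cells, where 11.1% were higher and 3.96% lower. In sperm-like cells Aqp9 differed from principal-like cells by -0.2 ± 0.279 (adjusted p = 0.596). In the caput, however, it had 57, 50.4 and 35.8 CPM in sperm-like cells, 2.03 to 3.22 times the principal-like level, where the principal markers had ratios of 0.391 to 0.599. The Ldhc-led sperm-like cluster had 54.4 ± 28.4 CPM (n = 5). In the caput of P56 replicates 1 and 2 this cluster had 73.8 and 65.9 CPM of Aqp9. The Prm2-led cluster had 8.32 and 9.21 CPM there, below the principal-like cells of the same libraries, a difference that was not tested.

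In basal-like cells, Aqp9 was called between segments. It had 1.98, 4.58 and 4.68 CPM in the caput, 14.6, 39.2 and 22.3 CPM in the corpus and 2.74, 19.2 and 32.6 CPM in the cauda. The corpus values were above all caput values. The cauda at P42 had 85 basal-like cells, where 3 UMIs would have been 8.23 CPM, so its 2.74 CPM lies below that floor. The corpus was 3.16 ± 0.454 and the cauda 2.85 ± 0.447 above the caput on the log2 scale (adjusted p over the segments = 0.00123), where 13.7% of 9815 genes were called. Without P56 replicate 1 the adjusted p of Aqp9 over the segments was 0.0527, while the difference from the caput was 2.89 in the corpus (adjusted p = 0.0435) and 2.98 in the cauda (adjusted p = 0.0369). Without P56 replicate 2 the cauda was 2.17 above the caput (adjusted p = 0.0501). The ratio of Aqp9 in basal-like to principal-like cells exceeded that of the principal markers in 5 of 9 libraries, and over the libraries it ranged from 0.0512 to 0.936, where that of the markers ranged from 0.158 to 0.64. In clear/narrow-like cells, with 6.89, 8.96 and 7.61 CPM in the caput, 11.5, 18.9 and 24.4 CPM in the corpus and 7.07, 18.5 and 26.8 CPM in the cauda, the range was 1.36 (adjusted p = 0.0271), where 14.3% of 11315 genes were called, and the ratio to principal-like cells exceeded that of the markers in 5 of 9 libraries. The part of free principal-cell RNA in these differences was not tested. Without the pool of mice as a block, Aqp9 in clear/narrow-like cells was no longer called (adjusted p = 0.134 for the corpus and 0.068 for the cauda). An antisense gene, Gm32511, with 834 UMIs in the kept cells, overlaps an exon of Aqp9.

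Aqp11, the unorthodox member, lies in the endoplasmic reticulum and is known from the kidney and the testis. Its highest level was in sperm-like cells, with 342, 220 and 174 CPM in the caput, 339, 97.3 and 117 CPM in the corpus and 310.4 and 106 CPM in the cauda of P42 and P56 replicate 2. All 8 values lay above those of every other population. The difference from principal-like cells was 2.77 ± 0.23 on the log2 scale (adjusted p = 2.03e-17). UMIs of Aqp11 were found in 51.4% ± 16 of sperm-like cells (n = 8 libraries, median depth 4945 UMIs) and in 15.9% ± 10.6 of principal-like cells (n = 9, median depth 5756). The Ldhc-led and the Prm2-led clusters had 257 ± 154 CPM (n = 5) and 169 ± 100.2 CPM (n = 7), and 41 of the 57 sperm-like cells with an Aqp7 UMI also held Aqp11, 71.9% against 46.6% of the others, not matched for depth per cell. In each segment the P42 value was the highest of its pools, but the ages were not tested in sperm-like cells.

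In principal-like cells, Aqp11 had 19.8, 16.5 and 19.2 CPM in the caput, 26.2, 18.3 and 26.9 CPM in the corpus and 35.7, 50.7 and 59.5 CPM in the cauda. The cauda was highest in every pool. It was 1.63 ± 0.276 above the caput (adjusted p = 0.00255) and 1.18 ± 0.273 above the corpus (adjusted p = 0.0237) on the log2 scale, and the corpus differed from the caput by 0.45 ± 0.27 (adjusted p = 0.232). The 11 sperm markers summed to 8.23 to 172 CPM in the principal-like cells of the cauda, 26.8 to 209.8 in the caput and 133.8 to 252 in the corpus. The part of sperm RNA in the level of Aqp11 was not tested. The clusters of the cauda led by Svs2, Spink14 and Sprr2f and by Gsta2, Cxcl5 and Adgrg7 had pooled levels of 55.9 and 54.1 CPM. The test over the 3 segments was no longer called without P56 replicate 1 (adjusted p = 0.0793), without P56 replicate 2 (0.0603) and with cells gated one by one (0.151). The difference between cauda and caput remained called without either replicate, at 1.44 ± 0.357 (adjusted p = 0.0493) and 1.42 ± 0.371 (adjusted p = 0.0435), and was 1.15 ± 0.437 with gated cells (adjusted p = 0.094). The difference of Aqp11 between cauda and corpus lost its call in all 3, with 0.85 (adjusted p = 0.323), 1.13 (0.171) and 0.79 (0.308).

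In basal-like cells Aqp11 had 10.3, 8.25 and 9.35 CPM in the caput, 12.5, 16.5 and 22.3 CPM in the corpus and 11, 24.6 and 39.6 CPM in the cauda, with the caput lowest in every pool. The cauda was 1.93 ± 0.372 above the caput (adjusted p over the segments = 0.011), and without P56 replicate 1 the adjusted p of Aqp11 was 0.295. Its ratio to principal-like cells exceeded that of the principal markers in 8 of 9 libraries. Against principal-like cells Aqp11 was lower in basal-like cells by -1.18 ± 0.234 (adjusted p = 2.14e-05), and with TMM factors set to 1 the difference was -0.81, under the fold threshold. In clear/narrow-like, myoid/fibroblast-like, endothelial-like and macrophage/monocyte-like cells Aqp11 was not called between segments, with adjusted p from 0.256 to 0.417. In halo/T-like cells, where 15.2% of genes were called, no member passed the filter on low counts. Of the 36 exact permutation tests within pools, 9 had an unadjusted p below 0.05 and 0 passed after adjustment. That test gave an unadjusted p of 0.0278 for Aqp1 and Aqp11 in principal-like cells. It gave 0.0833 for Aqp8 and Aqp9 in principal-like and for Aqp9 and Aqp11 in basal-like cells, and 0.111 for Aqp9 in clear/narrow-like cells.

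The age comparison sets 1 pool at P42 against 2 at P56, so that age and pool cannot be told apart, and it borrows its spread from the P56 pairs. One pool of mice gave a library of each segment, and these 3 libraries enter this fit as if independent, so the SE and p of the average over segments do not carry the spread between pools. In the principal-like cells of the caput, Aqp1 was lower at P56 by -1.82 ± 0.305 on the log2 scale (adjusted p = 0.0334), 1 of 7 members tested beside 0.76% of 18165 genes. The P42 caput also had the highest share of endothelial-like cells, 7.44% against 1.64% and 2.83% at P56, and the part of these cells in the result was not tested. In the corpus none of the 7 was called by edgeR, where 2.93% of genes were called, with an unadjusted p below 0.05 for Aqp9 alone, and DESeq2, which gave an adjusted p for 3 of the 7, called none of these 3. In the cauda, Aqp11 was higher at P56 by 1.43 ± 0.25 (adjusted p = 0.00265), where 20.1% of all genes were called, and Aqp7 was called lower from 3 UMIs at P42 and none at P56, too few for a fold. With TMM factors set to 1, which moved the median of all genes by -0.76 in the cauda, the difference of Aqp11 was 0.63 and was not called. Averaged over the segments, the fitted difference was 0.4 ± 0.101 for Aqp9 (adjusted p = 0.0168) and 0.62 ± 0.139 for Aqp11 (adjusted p = 0.00999), both below the fold threshold. These values rest on the TMM scaling. With factors set to 1, which moved the median of all genes by -0.48 in this average, Aqp9 was at -0.13 ± 0.123 and Aqp11 at 0.09 ± 0.147, and the CPM of Aqp9 given above were alike in the caput and lower at P56 in the cauda, so no direction with age is given for Aqp9. Aqp1 averaged -1.26 ± 0.331 (adjusted p = 0.0199), where 10.2% of genes were called, but without P56 replicate 1 and without P56 replicate 2 the adjusted p was 0.39 and 0.219, and without the cluster of few UMIs from the cauda at P42 the average was 0.95 ± 2.84 (adjusted p = 0.889).

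The order of the populations was compared for the 6 members with at least 100 UMIs, by exact sign-flip permutation tests over libraries between the 48 pairs of neighbours in the order. With at most 9 libraries a pair, the smallest p is 0.00391, which is 0.188 after adjustment if 1 pair alone reaches it, so this design could hardly pass the threshold. None passed (smallest adjusted p = 0.188), and 4 had an unadjusted p below 0.05. Libraries of the same pool were flipped as if independent, so these p do not carry the spread between pools. The first neighbours were endothelial-like and ciliated-like cells for Aqp1 (3 of 3 libraries higher, exact p = 0.25, the smallest that 3 libraries allow), myoid/fibroblast-like and ciliated-like cells for Aqp2 by their means (although 1 of the 3 shared libraries was higher, mean log2 difference -0.4, exact p = 0.5), ciliated-like and basal-like cells for Aqp4 (2 of 3 libraries, exact p = 0.5), and sperm-like and endothelial-like cells for Aqp7 (6 of 8 libraries, exact p = 0.0469). Sperm-like cells were above principal-like cells for Aqp11 in 8 of 8 libraries (exact p = 0.00781) and for Aqp9 in 3 of 8 (exact p = 0.883). The basal-like cells were above the next population, the macrophage/monocyte-like cells, for Aqp4 in 9 of 9 libraries (exact p = 0.00391). With the clusters replaced by a gate on single cells, the gated ciliated cells stood first for Aqp9, above principal cells in 2 of 3 libraries (exact p = 0.5). That gate placed 84 cells of the sperm-like clusters with the ciliated cells, beside 146 of the ciliated-like cluster. By clusters the ciliated-like cells stood last for Aqp9, with a mean of 11 CPM.

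Levels were compared over 25 pairs of a population and a segment, which share libraries and may share free RNA. Those most like Aqp1 among 10411 genes were Kdr (Pearson r = 0.957), Flt1 (0.949) and Tm4sf1 (0.942). For Aqp9 they were Fam186a (0.812), Gm10244 (0.807) and Tmc5 (0.801). For Aqp11 they were Gm5617 (0.899), Odf2 (0.883), a gene of the outer dense fibres of the sperm tail, and Llcfc1 (0.879), which is needed for fusion of sperm and egg. These are correlations of log2(CPM + 1) given as a description.

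Other genes of water and solute transport were followed in principal-like cells from lists of named genes. Of 3 other aquaporin family genes, Aqp6 could be tested. It had 0.658, 1.04 and 0.717 CPM in the caput, 8.91, 6.56 and 2.52 CPM in the corpus and 0 in the 3 cauda libraries, so the corpus was at least 72.9-fold higher than the cauda, with 231 UMIs against a floor of 3 over the group. Aqp6 is an anion-permeable member of acid-secreting kidney cells. Of the corpus cells with an Aqp5 UMI, 7 of 38 also held Aqp6. Mip had 52 UMIs in the kept cells and Aqp12 had no row in the table.

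Of 9 genes of glycerol handling, 4 were called between segments, none with the caput highest, 2 with the corpus and 2 with the cauda highest, beside 33.6% of all genes called and 9.89% and 9.27% with the corpus or the cauda highest. The median cauda-minus-caput difference of the list was -0.07, beside -0.002 over all genes. Lipe, hormone-sensitive lipase, had 1.32, 0.816 and 1.43 CPM in the caput, 1.73, 1.13 and 1.11 CPM in the corpus and 3.91, 2.9 and 3.63 CPM in the cauda (cauda minus caput 1.8 ± 0.281, adjusted p = 0.00172). Gk5, a glycerol kinase family gene, was 1.51 ± 0.244 higher in the cauda than in the caput (adjusted p = 0.00204). Gk2, the testis form of glycerol kinase, had 0.43 to 1.11 CPM in caput and corpus and at most 0.0527 CPM in the cauda.

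Of 20 genes of ion transport, 18 were tested and 8 called, 5 with the caput, 1 with the corpus and 2 with the cauda highest, beside 33.6% of all genes called and 14.5%, 9.89% and 9.27% with these segments highest. The list's median difference from the caput was -0.42 in the corpus and -0.14 in the cauda, beside -0.01 and -0.002 over all genes. Cftr, the anion channel, had 13.6 to 16.1 CPM in the caput, between 0 and 0.371 in the corpus and none in the cauda. Slc4a4, a sodium bicarbonate cotransporter, had 31.4 to 46 CPM in the caput, between 0.468 and 0.866 in the corpus and 0.29 to 6.91 in the cauda. Slc9a3, the apical sodium-proton exchanger, had 0.0453 to 0.0731 CPM in the caput, between 1.53 and 2.87 in the corpus and 10.5 to 16.6 in the cauda (cauda minus caput 7.98 ± 0.338, adjusted p = 6.02e-06).

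Of 13 osmolyte and tonicity genes, 6 were called, 2 with each segment highest. Slc6a6, the taurine transporter, had 6.26 to 15.7 CPM in the caput, between 33.8 and 51.6 in the corpus and 52.8 to 101.3 in the cauda (cauda minus caput 2.92 ± 0.197, adjusted p = 2.72e-05). Sgk1, a kinase that regulates sodium transport, was 3.3 ± 0.25 higher in the cauda than in the caput (adjusted p = 4.4e-05). Slc6a12, the betaine transporter, had 0.234 to 0.866 CPM in caput and corpus and none in the cauda. Over all genes tested, 5310 of 15782 were called.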

How the data were processed

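UMI counts per gene and cell barcode were measured in 9 libraries (3 segments of 3 pools of 5 mice). The authors trimmed reads with fastp, extracted barcodes with UMI-tools, mapped reads with STAR 2.7.3a (tools per the labels) to GRCm38.p6, assigned them to exons with featureCounts, and deposited the raw counts without normalization. Every value was a whole number.

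Barcodes with 300 to 4000 genes, at most 20000 UMIs and less than 50% mitochondrial UMIs were kept. Cells were clustered with scanpy 1.11.5 (Python 3.11.15, 3000 variable genes without aquaporins, 50 components, 20 neighbours, Leiden resolution 1), and clusters were named from markers. Scrublet marked 31 cells as doublets (0.0737%) and its calls were not used. An alternative left out the 5% of cells with the highest scores. UMIs were summed per library and population with at least 10 cells, without globins. Sums were tested with edgeR 4.0.16 in R 4.3.3 (filterByExpr, TMM, quasi-likelihood, Benjamini-Hochberg over all genes). The segment model had the pool as a block, because 1 set of mice gave all 3 libraries of a pool. Deviations from segment means correlated within the 9 pairs of libraries of the same pool at a median of 0.338 (0.0454 to 0.615), and at a median of -0.169 in the 18 pairs of different pools. Taking off segment means itself lowers the correlation between pools. Among the P56 libraries alone, it was 0.0454 to 0.465 within a replicate and -0.017 to 0.417 across replicates. These values thus do not show the pairing of the P56 replicates. Populations had the library as a block, and the age model had none. Cells of a library were not treated as replicates. A test of edgeR on simulated counts used 1 dispersion, no difference between pools, and changes only in genes with at least 10 expected UMIs. It covers neither the spread between pools nor members with few UMIs. Exact intervals are Clopper-Pearson at 95%, and intervals and floors of 3 counts cover counting error only. Log2 values with a pseudocount used 1 CPM. Alternatives were DESeq2 1.42.0, no filter, TMM factors of 1, no mitochondrial genes, no block, no cells of high doublet score, cells gated one by one, clusters at resolution 2, thinning to 2000 UMIs, each pool left out and, chosen after seeing the data, the cluster of few UMIs left out. Genes named besides the members are the 3 most like genes of members with at least 500 UMIs and at most 3 called genes of each list with the largest fitted change. Leading genes of clusters and the overlapping genes were named after their values were seen. The members are named by a rule without measured values, but this gene family, the lists and the markers were chosen with earlier results of these data known. Coordinates are of GENCODE M21 on GRCm38. A strand setting is not given in the sources used here.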

Additional observations from a re-analysis of the deposited data

Results flagged for a closer look

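The fitted age difference of Aqp11 in principal-like cells differed between segments. P56 minus P42 was 1.43 ± 0.25 on the log2 scale in the cauda and 0.15 ± 0.234 in the caput, and the difference of these differences was 1.28 ± 0.336, with an adjusted p of 0.033 by edgeR (quasi-likelihood, Benjamini-Hochberg), where 12.1% of 18165 genes were called. Both P56 cauda values, 50.7 and 59.5 CPM, lay above the P42 value of 35.7 CPM, and in the caput the P42 value of 19.8 CPM lay above 16.5 and 19.2 CPM. The sign in the caput thus depends on the scaling, since with TMM factors set to 1, which moved the median of all genes by -0.28 there, the caput difference of Aqp11 was -0.15 ± 0.249. The call was lost with DESeq2 (adjusted p = 0.0584), with TMM factors set to 1 (difference 0.78, adjusted p = 0.177) and without the cluster of few UMIs from the cauda at P42 (adjusted p = 0.0839). That library had 1 pool and the lowest median depth, and the part of depth in the result was not tested.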

How the results depend on the processing

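Between segments in principal-like cells, 4 of the 4 members tested were called (33.6% of all genes). Of these, Aqp8 passed the filter on low counts through the corpus alone, so the count is no support. The number was 5 of 9 with no filter on low counts. Leaving out 1 pool at a time gave 2 to 4, with 2 without P56 replicate 1, where the calls of Aqp8 and Aqp11 over the segments were lost. In the other populations 3 calls were made in 11 tests (8.88% to 14.3% of all genes by population), 12 in 48 with no filter on low counts, and 0 to 10 with 1 pool left out. The 0 calls, in 14 tests, came from edgeR without P56 replicate 1, where 5 had an unadjusted p below 0.05, 1 call in 13 tests came without P56 replicate 2 and 10 in 13 without the P42 pool. Against principal-like cells there were 16 calls in 56 tests (5.67% to 19.7% of all genes higher and 2.86% to 10.7% lower by population), 11 in 40 without the P42 pool, 17 in 48 and 18 in 56 without P56 replicate 2 and 1, and 22 with DESeq2. Of the members tested, Aqp2, Aqp3, Aqp4 and Aqp7 passed the filter only with populations where they were high, so the count is no support. Without the replicate block of pools and libraries, the counts were 4, 2 and 12, and the lost calls included Aqp9 in clear/narrow-like cells, Aqp2 in ciliated-like cells, Aqp11 in basal-like cells, and Aqp9 in myoid/fibroblast-like and halo/T-like cells. By age 4 calls were made in 28 tests (0.76% to 20.1% of all genes by contrast), 2 with DESeq2 and 13 in 36 tests with cells gated one by one. Averaged over segments there was 1, with 3 under TMM factors of 1, 5 with cells gated, 0 without either P56 replicate and 0 without the cluster of few UMIs, where the value of Aqp1 was 0.95 instead of -1.26. In edgeR 2 and 1 members had an unadjusted p below 0.05 without P56 replicate 1 and 2, and 4 without that cluster. The causes of these changes were not tested. Thinned to 2000 UMIs per cell, the share of cells with a UMI was 21.8% instead of 37.7% for Aqp1 in endothelial-like cells, 6.59% instead of 17.2% for Aqp9 in principal-like cells and 28.5% instead of 51.4% for Aqp11 in sperm-like cells, since fewer UMIs were kept. For single genes, 323 of the values kept their direction and side of the threshold and 38 lost their call in the same direction.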

Other observations

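Among the 898 unnamed cells of a cluster led by Hmmr, Cenpf and Ube2c, genes of dividing cells, Aqp9 had a pooled level of 21.9 CPM from 150 UMIs, Aqp11 had 15 CPM from 103, and Aqp1 had 5.1 CPM from 35. The cluster held 6 UMIs of Aqp8, 2 each of Aqp2, Aqp4, Aqp5 and Aqp7, and none of Aqp3. In a second unnamed cluster of 389 cells led by Cpe, Slc39a4 and Tecta, almost wholly from the caput (386 cells), Aqp9 had 16.6 CPM, Aqp11 had 17.5 CPM and Aqp1 had 1.56 CPM, and no UMI of Aqp2, Aqp4, Aqp5, Aqp7 or Aqp8 was found. In the cauda, 486 of the 1356 principal-like cells with an Aqp9 UMI also held Aqp11, 35.8% against 24.1% of the cells without, a difference that depth per cell alone can also give and that was not thinned.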
